A study of Mus musculus with 6 samples.

Results

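The Krüppel-like factors (KLFs) measured here are 10 mouse genes, Klf2, Klf3, Klf4, Klf6, Klf7, Klf9, Klf10, Klf11, Klf13 and Klf16, chosen by their gene symbol among the 28795 genes of the deposited table. All 10 symbols were found, each in 1 row, and all 10 genes passed the filter on low values, which asked for an FPKM of 1 or more in 3 or more of the 6 libraries (FPKM scales fragments by transcript length and library size). The day 5 group held 3 RNA sequencing libraries of bone marrow monocytes, the marrow precursors of macrophages and osteoclasts, after 5 days in 50 ng/ml RANKL. The day 0 group held 3 libraries of the same cell type at 0 days of RANKL. Both groups were grown in M-CSF at 50 ng/ml, and neither a genotype nor a strain or age is given in the labels. Since the day 0 libraries carry RANKL in their treatment label too, the time label sets the groups. No day 5 culture without RANKL was analysed here, so RANKL and time in culture cannot be told apart in any difference below. The labels do not tie the libraries of a day to separate animals or cultures, and the p-values therefore measure the spread between these libraries, which may be technical.

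KLFs are transcription factors that bind GC-rich DNA and CACCC boxes through a C-terminal array of zinc fingers shared with the SP factors, while their N-terminal parts differ and recruit different cofactors. KLF3 and its relatives bind the corepressor CtBP. KLF2, KLF4, KLF6 and KLF7 belong to a branch whose members often activate transcription with histone acetyltransferases. KLF9, KLF10, KLF11, KLF13 and KLF16 recruit the SIN3A corepressor with its histone deacetylases. In the monocyte lineage KLF4 is known for promoting monocyte differentiation and KLF2 for restraining the inflammatory activation of monocytes and macrophages.

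Depth was similar in the groups, with between 64616609 and 82721513 counts per library over the whole table. The labels' cell identity was checked on fixed marker lists. All 8 osteoclast markers rose, with summed FPKM of 10909 to 11688 in the day 5 libraries and 139 to 195 in the day 0 libraries. Of 8 macrophage markers 6 were tested, of which 5 fell and 1 rose, with summed FPKM of 4665 to 5500 at day 5 and 11990 to 14442 at day 0. The blood monocyte markers Ly6c2 and Ccr2 were under 1 FPKM in every library. Stromal transcripts were present on both days: 11 markers summed to 1151 to 1265 FPKM at day 5 and 1505 to 2202 FPKM at day 0, and 6 of the 7 tested fell, while Lepr, Dcn, Lum and Bglap stayed under 1 FPKM. Of neutrophil markers S100a8 and S100a9 rose, and the 3 such markers found summed to 9.03 to 24.9 FPKM at day 5 and 2.21 to 4.54 FPKM at day 0. No T cell, B cell or erythroid marker passed the filter. In these bulk libraries fewer cells of a type and less RNA per cell cannot be told apart, and the part of other cells in the KLF values was not tested.

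As a family the KLF transcripts shifted in both directions by modest amounts. Here a gene is said to have risen or fallen when its adjusted p was under 0.05 in edgeR's quasi-likelihood test over all 11908 genes tested, and it is called when its log2 difference (day 5 minus day 0) was also at least 1 in size. Klf4, Klf9 and Klf10 rose and Klf2, Klf3, Klf7, Klf13 and Klf16 fell, while Klf6 and Klf11 did not pass the test. Of the 10 members 3 rose, against 26.6% of all tested genes, and 5 fell, against 28.8%. Only Klf2 was called, and it was lower at day 5. Of the members, 1 was thus called lower, where 6.47% of tested genes were, and 0 were called higher, where 5.84% of tested genes were. For 8 members the libraries of the 2 days did not overlap, which held for 63.3% of all tested genes. The median log2 difference was -0.20 over the members and -0.00 over all tested genes. With 3 libraries against 3, the smallest p that an exact two-sided permutation test of 1 gene can give is 0.1, and each of these 8 members gave it.

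Levels between members were compared as FPKM, which accounts for transcript length. Klf6, a factor induced in activated macrophages and injured tissue, was the most abundant on both days. It had 37.5, 36.0 and 41.7 FPKM in the day 5 libraries and 33.6, 32.3 and 36.6 FPKM in the day 0 libraries, and made up 41.1% ± 1.93 of the FPKM summed over the members at day 5 and 36.8% ± 1.21 at day 0 (SD, n = 3 each). Klf10 was the second at day 5 with 13.7 ± 0.351 FPKM and the third at day 0 with 8.94 ± 0.571 FPKM. Klf2 stood in the eighth place at day 5 and in the fourth at day 0, while Klf4 stood in the fourth place at day 5 and in the seventh at day 0. Klf7 and Klf11 were the least abundant on both days. At day 5 only Klf16 and Klf3, and Klf3 and Klf2, were neighbours in this order whose libraries overlapped. At day 0 the neighbours Klf10 and Klf2, Klf2 and Klf3, Klf16 and Klf4, and Klf9 and Klf7 overlapped. The FPKM summed over the 10 members was 94.2, 89.7 and 96.4 in the day 5 libraries and 88.2, 89.2 and 102 in the day 0 libraries, so the sums of the days overlapped while the order of the members differed.

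**Figure D1:**
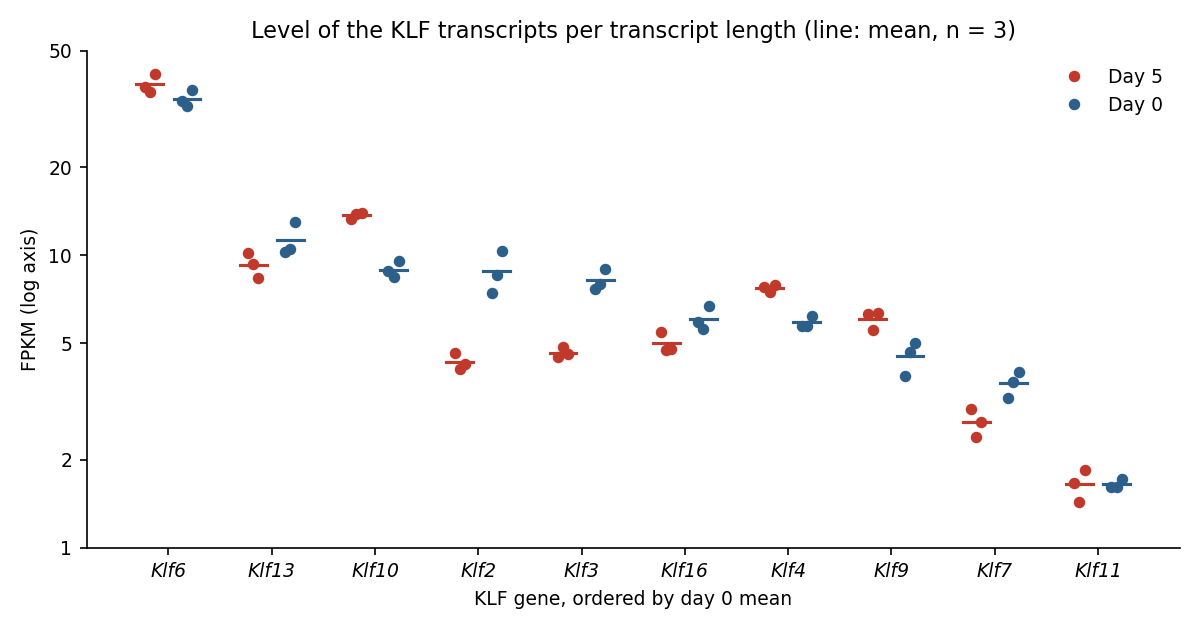
FPKM of each KLF transcript (log axis) in the 3 libraries of day 5 (red, left) and day 0 (blue, right), ordered by the day 0 mean, with a line at each mean. Klf6 lies above all others on both days, and Klf2 and Klf3 lie lower at day 5 while Klf10, Klf4 and Klf9 lie higher.

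Klf3, also called basic KLF, is a repressor that acts through CtBP (ENSMUSG00000029178, chromosome 5, 64803388 to 64832901, plus strand; positions are in mouse build GRCm38, matched by gene ID). Its level came to 52.3, 56.3 and 52.3 CPM (counts scaled to library size by TMM and set to 1000000 per library) in the day 5 libraries, against 94.6, 94.6 and 107 CPM in the day 0 libraries. The day 5 libraries lay close together and all below the day 0 libraries. Klf3 fell 1.84-fold, a log2 difference of -0.88 ± 0.07 (SE). Its adjusted p of 1.74e-06 was the smallest of the 10 members. The difference is under the size threshold, and its 95% interval ran between -1.04 and -0.72. Among all tested genes 7.82% had a lower log2 difference.

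Klf2, the KLF of quiescent endothelium and T cells (ENSMUSG00000055148, chromosome 8, 72319033 to 72321656, plus strand), was counted 649, 558 and 586 times at day 5, against 932, 1180 and 1644 times at day 0. These were 8.87, 7.79 and 7.95 CPM at day 5, against 15.1, 16.7 and 20.4 CPM at day 0. Every day 5 library lay below every day 0 library, and the day 0 libraries were the more scattered. Klf2 fell 2.12-fold, a log2 difference of -1.08 ± 0.13 (SE, adjusted p = 4.19e-05, 95% interval -1.38 to -0.79), and 5.61% of all tested genes had a lower one. Day 0 replicate 3 held the highest value, and without it the log2 difference was -0.93 (adjusted p = 2.48e-04), short of the size needed for a call. On the log2(FPKM + 1) scale in limma, which understates low genes, it was -0.87. Klf2 is also an endothelial gene. Of 6 endothelial markers only Cdh5, encoding VE-cadherin, was tested and it fell 2.38-fold (adjusted p = 9.17e-05). Cdh5 passed the filter through day 0 alone, with 0.62 ± 0.0781 FPKM at day 5 and 1.42 ± 0.144 FPKM at day 0 (SD, n = 3 each). The 6 summed to 1.28 to 1.32 FPKM at day 5 and 2.86 to 3.14 FPKM at day 0, with Pecam1, Kdr, Tek, Emcn and Cldn5 under 1 FPKM in every library. The part of endothelial transcripts in the Klf2 values was not tested.

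Klf4 (ENSMUSG00000003032, chromosome 4, 55527143 to 55532466, minus strand), a close relative of Klf2 with known roles in monocytes and endothelium, moved the other way. It had 24.5, 23.5 and 24.3 CPM in the day 5 libraries and 19.1, 18.5 and 20.2 CPM in the day 0 libraries. The day 5 values stood above all day 0 values with little scatter. Klf4 rose 1.25-fold, with a log2 value of 0.32 ± 0.09 for day 5 minus day 0 (SE, adjusted p = 0.00793). The ratio of Klf4 to Klf2 FPKM within a library, which does not depend on scaling between libraries, was 1.67, 1.83 and 1.85 at day 5 and 0.769, 0.671 and 0.599 at day 0. Klf2 was thus the more abundant of the pair in every day 0 library and Klf4 in every day 5 library (exact two-sided permutation test, p = 0.1, the smallest possible with 3 against 3).

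The stretches before the start sites of Klf2, Klf4 and Klf9 are shown because they differ in the short motifs they hold. They run between 250 and 30 bases before the RefSeq start in build GRCm38.p6, read along the gene's strand. Capitals mark GGGCGG (the GC box) and CACCC on either strand, and the MEF2-type motif CTA, any 4 bases, TAG.
Klf2, chr8:72318812-72319032, plus strand: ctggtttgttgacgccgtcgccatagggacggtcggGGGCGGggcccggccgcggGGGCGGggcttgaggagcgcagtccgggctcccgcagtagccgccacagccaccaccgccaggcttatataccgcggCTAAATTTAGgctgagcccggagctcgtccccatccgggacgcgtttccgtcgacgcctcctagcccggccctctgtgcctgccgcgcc
Klf4, chr4:55532505-55532725, minus strand: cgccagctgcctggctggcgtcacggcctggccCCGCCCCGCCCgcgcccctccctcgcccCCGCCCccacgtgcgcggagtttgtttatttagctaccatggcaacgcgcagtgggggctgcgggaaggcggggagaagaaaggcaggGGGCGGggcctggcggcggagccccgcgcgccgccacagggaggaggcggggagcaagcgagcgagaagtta
Klf9, chr19:23140976-23141196, plus strand: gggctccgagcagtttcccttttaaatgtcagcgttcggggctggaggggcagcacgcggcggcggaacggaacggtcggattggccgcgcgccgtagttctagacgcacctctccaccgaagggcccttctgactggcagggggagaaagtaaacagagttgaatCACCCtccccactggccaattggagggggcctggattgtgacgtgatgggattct

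RefSeq windows were matched for 8 of the 10 members, Klf10 and Klf16 being the others. Over 32851 windows of the same 221 bases and position, 28.7% held GGGCGG, 48.0% CACCC and 2.86% the MEF2-type motif. The Klf2 window held GGGCGG at 2 places and the MEF2-type motif at 1, which none of the other 7 windows held. Klf4 held GGGCGG at 4 places, some of them overlapping, and Klf9 held none, with CACCC at 1 place and CCAAT at 3, a motif that 31.1% of all windows held. Among the windows not shown, GGGCGG was at 6 places for Klf3, 3 for Klf11 and 1 each for Klf6, Klf7 and Klf13. In these, CACCC was at 5 places for Klf3 and 3 for Klf7, and CCAAT was at 4 places for Klf6 and 2 each for Klf11 and Klf13. TGACGTCA was in none of the 8 windows (1.16% of all) and CACGTG was in those of Klf4, Klf6 and Klf11 (5.02% of all). GC content was 71.5% for Klf2, 74.2% for Klf4 and 61.1% for Klf9, with a median of 52.0% over all windows. These matches describe letters and not bound sites, and their relation to the direction of change was not tested.

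Klf6 and Klf7 are the other members of the activator branch. Klf6 (ENSMUSG00000000078, chromosome 13, 5861482 to 5870394, plus strand) had 170, 163 and 185 CPM at day 5 and 162, 149 and 171 CPM at day 0. The days overlapped, and the log2 difference of 0.10 ± 0.08 (SE, adjusted p = 0.262) had a 95% interval of -0.06 to 0.27. Klf7, known from neuronal development (ENSMUSG00000025959, chromosome 1, 64029447 to 64121491, minus strand), had 25.1, 20.1 and 22.2 CPM at day 5 and 29.0, 31.6 and 34.5 CPM at day 0. The days did not overlap. Klf7 fell 1.41-fold, a log2 difference of -0.50 ± 0.11 (SE, adjusted p = 0.00206).

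Among the members that bind SIN3A, Klf10 rose furthest. Klf10 encodes TIEG1, an early gene of TGF-beta signalling whose loss alters bone in mice (ENSMUSG00000037465, chromosome 15, 38291463 to 38300706, minus strand). It had 57.4, 59.8 and 58.7 CPM in the day 5 libraries and 40.3, 37.1 and 42.5 CPM in the day 0 libraries. The day 5 libraries lay within a narrow range above all day 0 libraries. Klf10 rose 1.47-fold, a log2 difference of 0.55 ± 0.08 (SE, adjusted p = 1.13e-04), and 85.8% of tested genes had a lower one. Its near relative Klf11, or TIEG2, known as a regulator of insulin transcription in beta cells (ENSMUSG00000020653, chromosome 12, 24651274 to 24662789, plus strand), had 7.50, 6.43 and 8.10 CPM at day 5 and 7.64, 7.36 and 7.92 CPM at day 0. Klf11 overlapped between the days, with a log2 difference of -0.06 ± 0.14 (SE, adjusted p = 0.756) and a 95% interval of -0.37 to 0.25. The sign of this difference turned without TMM scaling and without day 5 replicate 2, with 0.00 and 0.03. The ratio of Klf10 to Klf11 was 7.95, 9.69 and 7.52 at day 5 and 5.47, 5.24 and 5.56 at day 0, without overlap.

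Klf9, Klf13 and Klf16 are short KLFs of the same branch. Klf9, a gene induced by glucocorticoid and thyroid hormone (ENSMUSG00000033863, chromosome 19, 23141226 to 23168134, plus strand), had 31.3, 27.6 and 31.0 CPM at day 5 and 20.3, 23.6 and 25.8 CPM at day 0. The days did not overlap, by a small margin. Klf9 rose 1.29-fold, a log2 difference of 0.36 ± 0.10 (SE, adjusted p = 0.0116). Klf13, which activates the chemokine gene Ccl5 in T cells (ENSMUSG00000052040, chromosome 7, 63886351 to 63938915, minus strand), had 79.5, 72.3 and 63.4 CPM at day 5 and 84.7, 83.0 and 104 CPM at day 0. It fell 1.26-fold, a log2 difference of -0.34 ± 0.10 (SE, adjusted p = 0.0173). Klf16, first described as a regulator of dopamine receptor promoters (ENSMUSG00000035397, chromosome 10, 80567124 to 80577321, minus strand), had 15.1, 13.1 and 12.9 CPM at day 5 and 17.3, 15.8 and 19.1 CPM at day 0. It fell 1.27-fold, a log2 difference of -0.34 ± 0.11 (SE, adjusted p = 0.0249). For both the days lay close to each other without overlap. Both lost significance without day 5 replicate 3 and without day 0 replicate 3, where the adjusted p was 0.0687 and 0.0833 for Klf13 and 0.0805 and 0.114 for Klf16. Klf16 also lost it without day 5 replicate 2 (adjusted p = 0.0740) and without day 0 replicate 1 (adjusted p = 0.0560).

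**Figure D2:**
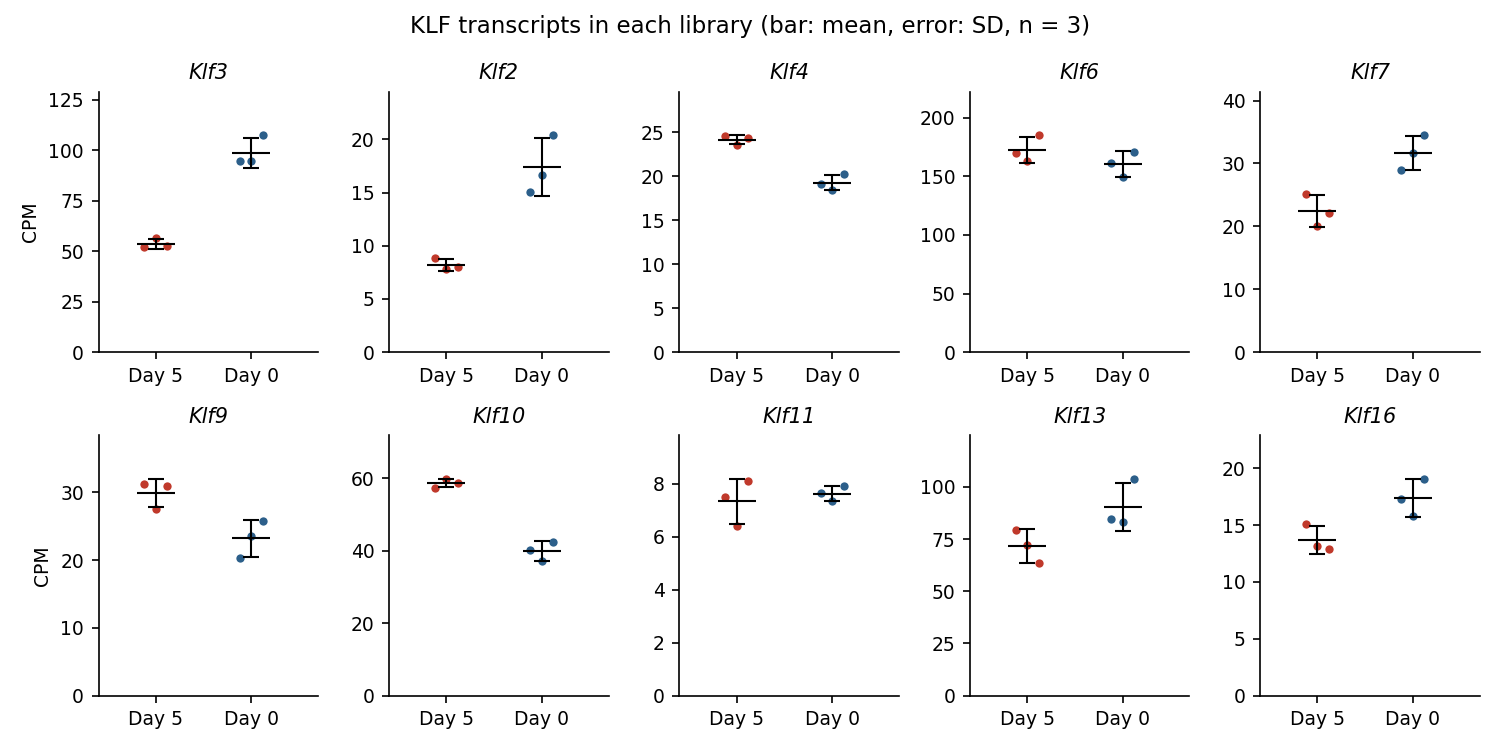
CPM of each KLF transcript in the 3 libraries of day 5 (red, left) and day 0 (blue, right), with the mean and SD in black on axes that start at 0. Klf2 and Klf3 lie lower at day 5, Klf10 lies higher at day 5, and Klf6 and Klf11 overlap.

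Ratios within a library were computed for 6 pairs of related members. Klf9 over Klf13 was 0.615, 0.596 and 0.764 at day 5 and 0.376, 0.445 and 0.388 at day 0, and Klf9 over Klf16 was 1.15, 1.17 and 1.33 at day 5 and 0.654, 0.831 and 0.750 at day 0. Klf16 over Klf13 was 0.534, 0.511 and 0.573 at day 5 and 0.574, 0.535 and 0.517 at day 0, and overlapped (exact two-sided permutation test, p = 0.7). Klf6 over Klf7 was 12.5, 15.0 and 15.5 at day 5 and 10.3, 8.76 and 9.19 at day 0, without overlap. Of the 6 ratios 5 had no overlap between the days, each at the smallest p that 3 against 3 libraries allow. Several ratios share a member, so they are not independent. The ratios were not part of the planned results. They restate the differences of single members given above and are no separate evidence for them. Among single genes, 63.3% of all tested had no overlap, and the share among ratios of other gene pairs was not computed.

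**Figure D3:**
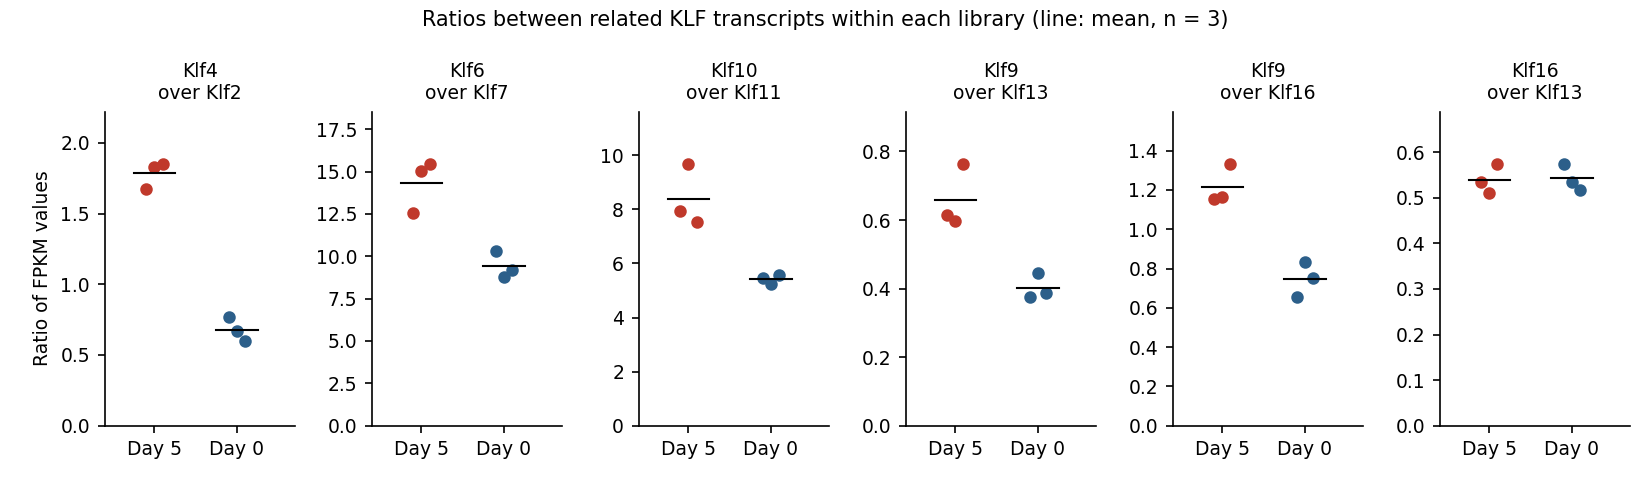
Ratio of the FPKM values of related KLF genes within each library, for day 5 (red, left) and day 0 (blue, right), with a line at the mean of 3 libraries. The first 5 ratios lie higher at day 5 in every library, with Klf4 over Klf2 above 1 at day 5 and below 1 at day 0, and Klf16 over Klf13 overlaps.

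Within day 0, replicate 3 held the highest CPM of the 3 libraries for all 10 members, where it did so for 35.4% of all tested genes. Within day 5, replicate 1 was the highest for 6 members, and for 37.5% of all tested genes. The shared height of day 0 replicate 3 widens the falls and narrows the rises. Without that library the log2 differences were -0.93 for Klf2, -0.79 for Klf3, -0.41 for Klf7, -0.25 for Klf16 and -0.20 for Klf13, and 0.18 for Klf6, 0.38 for Klf4, 0.47 for Klf9 and 0.62 for Klf10. Those of Klf13 and Klf16 no longer passed the test. The values of that library were not tested for a cause. Genes that overlap Klf3, Klf7, Klf9 and Klf13 in the table had between 2 and 46 counts each over all 6 libraries together.

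**Figure D4:**
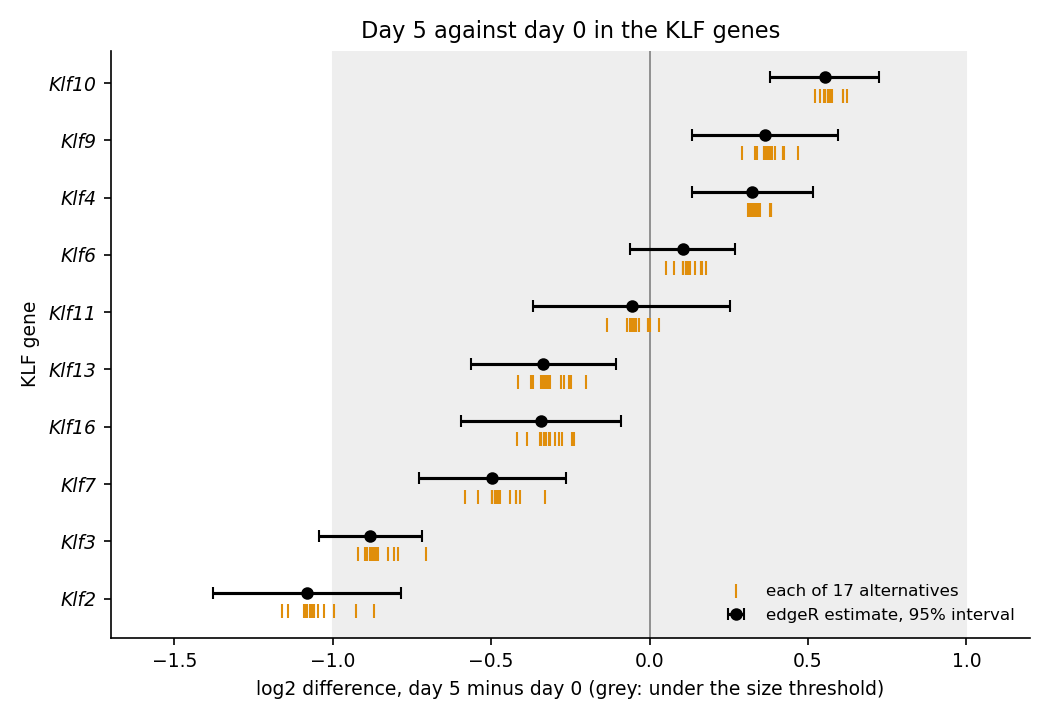
Log2 difference of each KLF gene, day 5 minus day 0, as the edgeR estimate with its 95% interval (black) and under each of 17 other ways of processing (orange ticks). The grey band holds differences under the size threshold of 1, which only the Klf2 estimate leaves, and all alternatives keep the sign of every gene except Klf11.

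Other KLF and SP genes were mostly low. Of the 14 that were found, 4 passed the filter, and of these 1 fell and none was called. Sp7, or osterix, the osteoblast transcription factor, fell 1.60-fold with 18.6, 19.2 and 19.4 CPM at day 5 and 28.6, 34.0 and 29.1 CPM at day 0 (adjusted p = 9.20e-05), beside the stromal markers given above. Sp1 and Sp2, ubiquitous GC-box factors, had log2 differences of 0.00 and -0.15, and Sp3 had 0.23 (adjusted p = 0.0539, and under 0.05 in 10 of 17 alternatives). Klf8, a CtBP-binding relative that KLF3 is known to repress in mouse erythroid cells, missed the filter. It had 1.11, 0.86 and 0.96 FPKM at day 5 and 0.33, 0.34 and 0.47 FPKM at day 0, all day 5 libraries above all day 0 libraries. In the edgeR fit without the filter its log2 difference was 1.33 ± 0.20 (SE, adjusted p = 0.00135). Klf12, the other CtBP-binding relative, had 0.19 ± 0.0458 FPKM at day 5 and 0.31 ± 0.0624 FPKM at day 0 (SD, n = 3 each). Sp4 had 0.74, 0.67 and 0.73 FPKM at day 5 and 0.97, 0.92 and 0.96 FPKM at day 0, all day 5 libraries below all day 0 libraries, with -0.45 ± 0.13 in that fit (SE, adjusted p = 0.0358). Sp6 was scattered, with 0.00, 0.11 and 0.55 FPKM at day 5 and 1.62, 0.88 and 0.99 FPKM at day 0, and did not pass there (adjusted p = 0.116). Klf1, Klf5, Klf15 and Sp5 were under 1 FPKM in every library, and Sp8 and Sp9 were listed at 0.

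Cofactors of the KLFs showed small differences. Of 13 corepressors and coactivators 4 rose and 4 fell, none was called, and the median log2 difference was -0.07. These counts are near the shares over all tested genes, of which 26.6% rose and 28.8% fell. Ctbp1, the most abundant and the partner of Klf3, had 171 ± 3.54 CPM in the day 5 libraries and 172 ± 5.56 CPM in the day 0 libraries (SD, n = 3 each). Sin3a, the scaffold bound by Klf9, Klf10, Klf11, Klf13 and Klf16, fell 1.32-fold (adjusted p = 8.24e-04), and Sin3b rose 1.37-fold (adjusted p = 2.35e-04). Of 6 ubiquitin ligases that act on KLF proteins 1 was called, Wwp1, which targets KLF2 and KLF5. Over all tested genes 6.47% were called lower. Wwp1 fell 3.30-fold, with 53.3 ± 7.49 CPM at day 5 and 176 ± 16.2 CPM at day 0, while 1 other member of that list rose and 2 fell.

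Known inducers of KLF genes changed unequally. The counts below stand beside 26.6% of all tested genes that rose and 28.8% that fell, with 5.84% called higher and 6.47% called lower. MEF2 factors drive Klf2 and Klf4 downstream of the kinase ERK5, and FOXO1 is a known inducer of Klf2. Over 7 genes of these routes the median was -0.23, and 4 fell and 1 rose. Foxo1 did not pass the test (log2 difference 0.05, adjusted p = 0.702), while Foxo3 fell 1.52-fold (adjusted p = 8.00e-05). Mef2c was called, 4.46-fold lower, with 7.13 ± 0.530 CPM at day 5 and 31.8 ± 2.70 CPM at day 0 (SD, n = 3 each, adjusted p = 2.70e-08). Mef2c passed the filter through day 0 alone, with 0.44 ± 0.0436 FPKM at day 5 and 1.88 ± 0.172 FPKM at day 0. Mef2a fell 1.87-fold (adjusted p = 2.84e-05). Mef2d, the most abundant of the 3 MEF2 genes listed, had 20.9 ± 1.40 FPKM at day 5 and 19.1 ± 1.69 FPKM at day 0 and did not pass the test (log2 difference 0.07, adjusted p = 0.494). Of 9 genes of the route of TGF-beta to SMADs, the known inducer of Klf10, 5 fell and 1 rose, with a median of -0.26. The list mixes parts of the route with its inhibitors Smad7, Ski and Skil, so these counts give no direction for the route. Those that fell were Tgfb1, Smad2 and Smad3 and the inhibitors Ski (1.64-fold, adjusted p = 9.58e-06) and Skil (1.37-fold, adjusted p = 0.00118). Smad7 did not pass the test (adjusted p = 0.210). The riser, Tgfbr1, the type I receptor, was called 4.14-fold higher, with 583 ± 48.4 CPM at day 5 and 141 ± 10.3 CPM at day 0 (adjusted p = 7.65e-09). Of 6 tested genes of the glucocorticoid response, which induces Klf9, 1 fell, Per1, a circadian repressor (1.89-fold, adjusted p = 2.14e-05), and none rose. Dusp1 and Sgk1, close to each other in FPKM and the most abundant of that list, had log2 differences of 0.01 ± 0.07 and 0.10 ± 0.10 (SE). Dusp1 counts are uncertain since it overlaps a more abundant gene. Klf2, Klf4, Klf6 and Klf10 are commonly induced by serum with the early genes. Of 14 tested early genes 7 rose and 3 fell, with a median of 0.33. Those called were Fos (2.92-fold), Egr3 (2.26-fold) and Egr1 (2.17-fold) higher and Atf3 (4.44-fold) lower, each with an adjusted p of 2.24e-04 or less. Egr3 passed the filter through day 5 alone, with 1.74 ± 0.174 FPKM at day 5 and 0.737 ± 0.155 FPKM at day 0.

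Most tested genes reported elsewhere as targets of KLF2 or KLF4 fell, among those reported as induced and among those reported as repressed. Among all tested genes 26.6% rose and 28.8% fell, with 5.84% called higher and 6.47% called lower. Over 8 tested genes reported as induced by them the median was -0.91, and 6 fell and 2 rose. Called lower were Mrc1, the mannose receptor (6.33-fold), S1pr1, the sphingosine 1-phosphate receptor (2.44-fold, 35.2 ± 1.13 CPM at day 5 and 85.7 ± 0.753 CPM at day 0, SD, n = 3 each), and Cd14, the lipopolysaccharide co-receptor (2.08-fold). Cd14 fell under the size threshold without day 5 replicate 2 and without day 0 replicate 1, with log2 differences of -0.97 and -0.91. Called higher were Itgb7, an integrin subunit (12.8-fold, 59.1 ± 4.18 CPM at day 5 and 4.62 ± 0.973 CPM at day 0), and Arg1, arginase 1 (2.58-fold). The largest adjusted p of these 5 genes was that of Arg1, 7.73e-04. Arg1 passed the filter through day 5 alone, with 1.61 ± 0.46 FPKM at day 5 and 0.593 ± 0.0681 FPKM at day 0. Thbd, encoding thrombomodulin, fell 1.89-fold (adjusted p = 1.16e-04). Of 6 genes reported as repressed by KLF2 or KLF4, 5 fell and none rose, with a median of -0.57. The chemokine gene Ccl2 was called, 2.15-fold lower (adjusted p = 5.82e-05), and had a log2 difference of -0.92 without day 0 replicate 1. Mrc1 and Cd14 are also macrophage genes, and of the 6 macrophage markers tested 5 fell while Cd68 rose 1.46-fold (adjusted p = 2.04e-04). The part of macrophage transcripts in these values was not tested.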

How the data were processed

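Poly(A) RNA of 6 libraries was sequenced as read pairs after a strand-marking dUTP protocol, per the labels' protocols. Tools given by the submitters' processing notes are HISAT2, StringTie, fastp and edgeR, with no version. These notes give the human build GRCh38, while the gene IDs are mouse and 99.7% of them are in GENCODE M21 (GRCm38). The counting rule and strand setting are not given in the sources used here. The counts and the FPKM values are as the authors deposited them. Among counts of 1 to 60, 31.2% were multiples of 4, so 1 fragment may count more than once, and a fit on counts divided by 4 was added after the data were seen.

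Genes with FPKM of at least 1 in at least 3 libraries (11908) were tested with edgeR 4.0.16 (R 4.3.3, TMM, quasi-likelihood, Benjamini-Hochberg). The test was checked on simulated data. The SE came from the log2 difference and the F statistic. Replicate libraries differed by more than sampling noise (chi-square per degree of freedom of at least 22.9). Alternatives were limma 3.58.1, DESeq2 1.42.0, other filters and scalings, a replicate block and leaving out each library. Named were all members and other KLF and SP genes past the filter. From each fixed list came up to 4 called genes or the most abundant one. Low KLF and SP genes, Sin3a, Sin3b, Mef2a, Mef2d, Foxo1, Foxo3, Sgk1, Cd68, Per1 and Thbd were named after their values were seen. So were Ctbp2, Tgfb1, Smad2, Smad3, Smad7, Ski and Skil. Members and lists were chosen with earlier results of these data known. Figures were drawn with matplotlib 3.10.9.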

Additional observations from a re-analysis of the deposited data

How the results depend on the processing

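Of 170 recomputed log2 differences of the 10 members, 158 kept their sign and their side of the adjusted p threshold and 10, all of Klf13 and Klf16, lost significance. The other 2 were of Klf11, which had 0.0017 with library totals in place of TMM and ran between -0.13 and 0.031 when each library was left out. With no size threshold 3 members counted as higher and 5 as lower. For all 17 fixed lists pooled these counts were 27 and 44 genes, against 16 and 13 called with it. Over all tested genes the shares were 26.6% and 28.8% without the size threshold and 5.84% and 6.47% with it. The pooled lists hold cell type markers: 8 of the 16 were osteoclast markers and 4 of the 13 macrophage markers. These counts are therefore no result about KLF genes. Klf2 lost its call in limma on log2(FPKM + 1) and log2(FPKM + 0.1), which left 0 members called lower. Leaving out each library gave 0 to 1 members called lower, and 3 to 5 members that fell. With every counted gene tested 3 members fell, and under filterByExpr 21 list genes were called lower; more genes were tested in both. In the fit with the replicate block the log2 difference of Klf2 was -1.07, and 1 member was called lower and 0 higher. Deviations from the day's mean correlated at -0.07, 0.21 and 0.06 between same-numbered libraries. The other pairs of a day 5 and a day 0 library ran between -0.19 and 0.12. With 3 libraries per day these values cannot tell whether the numbers pair the libraries. Over all genes the called counts ranged between 535 and 1244 higher and 438 and 1132 lower. Ctbp1, near 0, turned positive with every gene tested (0.018), filterByExpr (0.0094), library totals (0.051), RLE factors (0.0074), upper quartile scaling (0.0024), DESeq2 (0.0074) and limma (0.054 and 0.056). When each library was left out it ran between -0.021 and 0.042, Sp1 between -0.022 and 0.044 and Dusp1 between -0.034 and 0.067. The cause of these turns was not tested. Arg1, Cd14, Ccl2, Egr3 and Cdh5 were under the size threshold on log2(FPKM + 1), and Cd14 also on log2(FPKM + 0.1) and with library totals. The members had between 460 and 13803 counts in a library.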
